A study of Homo sapiens with 42 samples.

Results

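Across 4 lung cancer cell lines, 102 of 1712125 regions of open chromatin were nearly without reads in untreated cells and open in cells that had outlived an EGFR inhibitor. A region of 502 bases was chosen by its counts in its own line. The 3 DMSO libraries together held at most 3 counts, and each of the 3 drug tolerant persister (DTP) libraries held at least 5 CPM, that is, counts scaled to the total of the library. The rule found 53 of 361905 regions in HCC2935, 40 of 496892 in H1975, 8 of 502962 in PC9 and 1 of 350366 in HCC827. The rise from DMSO to DTP in a region's own line is therefore a result of selection and is described without a test.

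The study profiled chromatin accessibility by ATAC-seq, in which a transposase cuts accessible DNA and the number of cuts in a region measures how open it is. All 4 lines carry a mutated EGFR and grow in culture, and each was represented by 3 libraries per group, 42 libraries in 14 groups. DMSO cells were drug-free for 21 days and then received the solvent for 3 days, and DTP cells received 500 nM osimertinib, an EGFR inhibitor, for 24 days. In the combo group, 21 days of 500 nM osimertinib were followed by 3 days of 150 nM AZD5153, an inhibitor of BET bromodomains. Whether osimertinib stayed on during those last days is not given in the labels. AZD5153 alone was given only to PC9 and H1975, at 150 nM for 3 days after 21 drug-free days. The libraries are labelled biological triplicates, but each line is a single culture model, so the spread between libraries says nothing about other tumours. All groups of a line share its EGFR mutation, and no group received AZD5153 before osimertinib.

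Most regulatory DNA in a differentiated cell is wrapped in nucleosomes and closed to transcription factors. Enhancers lie within introns and between genes, are opened in patterns that differ between cell types, and are read by BET proteins, which bind acetylated histones. Persisters are cells that survive a drug without dividing much and can return to growth when it is withdrawn, and their chromatin has been studied as a possible carrier of that state.

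Total counts per library were lowest in HCC827, at 1724680 to 4242868, and were 3989287 to 5193390 in PC9, 3968690 to 8066287 in HCC2935 and 6200672 to 10062505 in H1975. At these depths 5 CPM stood for 9.47 to 21.2 counts in HCC827, 24.4 to 25.7 in PC9, 30.2 to 35.0 in HCC2935 and 41.6 to 47.7 in H1975 DTP libraries. The variance between PC9 replicates was 0.960 to 1.04 times that of counting noise, so p-values in PC9, and nearly so in H1975 at 0.967 to 1.25 times, may measure technical spread only. In HCC827 it reached 8.74 times the counting noise, and in HCC2935 1.83 times. Promoters of the epithelial genes EPCAM, KRT8, KRT18, KRT19 and CDH1 were at 3.61 to 75.8 CPM in every library. Among promoters of genes that such lines should not use, PTPRC (leukocytes) and LUM (fibroblasts) stayed at or below 3.15 and 3.67 CPM. COL1A2, PECAM1 and CD3E reached 17.7, 23.3 and 25 CPM. In PC9 no library fell below 12.3 CPM for PECAM1 or 7.01 for CD3E, while COL1A2 fell to 0.193. An open promoter alone thus did not mark the cell type.

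One of the chosen regions covers a whole promoter for which the reference sequence was at hand, that of SCAT2, a noncoding RNA gene that starts inside the gene of the heterochromatin protein CBX5. The HCC2935 region lies at chr12:54262314-54262815 (hg38). The RefSeq sequence is shown because this locus was higher in DTP than in DMSO in 3 lines, in HCC2935 by selection and in PC9 and H1975 by test. It spans chr12:54262365-54262664 on the plus strand of GRCh38.p14. Capitals mark ATTGG, which is CCAAT read on the other strand, and GGAATG, the core bound by TEAD factors.

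SCAT2 promoter: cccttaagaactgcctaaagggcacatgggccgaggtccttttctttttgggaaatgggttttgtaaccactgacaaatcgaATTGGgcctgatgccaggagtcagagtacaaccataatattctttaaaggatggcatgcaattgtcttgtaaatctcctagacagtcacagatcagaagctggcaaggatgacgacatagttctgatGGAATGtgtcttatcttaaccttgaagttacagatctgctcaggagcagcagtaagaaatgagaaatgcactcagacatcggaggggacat

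Of 35116 promoters of 300 bases searched on both strands, 14% held GGAATG and 34.6% held CCAAT, so neither match sets this promoter apart. TGACTCA (the AP-1 site, in 4.95% of promoters), CCGGAA (the ETS core), GGGCGG (the SP and KLF box), TGTTTAC (the FOX site, in 3.42%) and TATAAA (in 11.5%) were not found in this window.

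The rule admitted regions with DMSO sums of 0 to 3. In PC9, 2 regions had a DMSO sum of 2 and 6 had 3. In H1975, 7 had 1 count, 13 had 2 and 20 had 3, and in HCC2935 1 had 0, 8 had 1, 10 had 2 and 34 had 3. The single HCC827 region, within the gene of the synaptic vesicle protein SVOP, had 2. Summed DTP counts ran from 86 to 212 with a median of 110 in PC9, from 143 to 484 with a median of 197.5 in H1975 and from 106 to 270 with a median of 141 in HCC2935. The SVOP region held 57.

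The cutoffs pass through a continuum. The H1975 region at LINC02229, a noncoding RNA gene, had 5.05 CPM in its lowest DTP library and was taken, while one near LINC00662 had 4.92 and was not. In HCC2935, TRABD2B was taken at 5.00 CPM, and LRRC4C, with no DMSO count, was missed at 4.97. On the DMSO side, a region at LGR5 in H1975 reached 15 CPM in its lowest DTP library and was left out for a DMSO sum of 4. There were 8 regions with a sum of 4 that met the DTP threshold in PC9, 1 in HCC827, 17 in H1975 and 35 in HCC2935. The rule applied with DMSO and DTP exchanged found 36 regions in H1975 and 0 in each of the other lines.

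**Figure D1:**
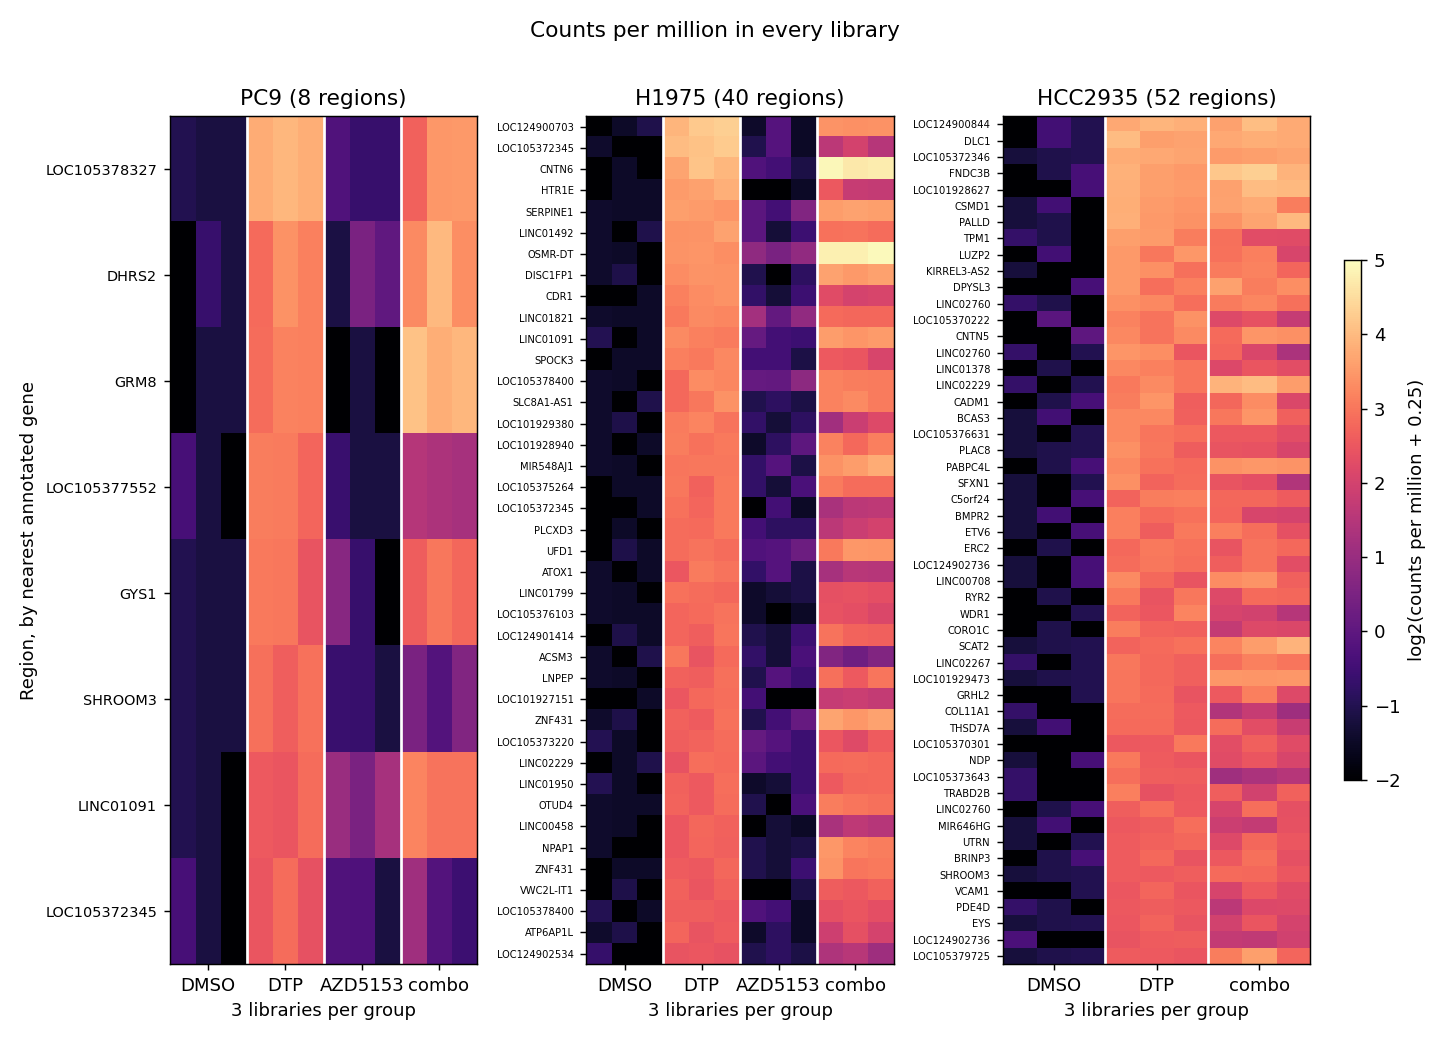
Heat maps of log2(CPM + 0.25) in every library for the 8 PC9, 40 H1975 and 52 of the 53 HCC2935 regions, with regions in rows by nearest annotated gene and 3 libraries per group in columns. DMSO is dark and DTP bright by the rule, AZD5153 alone stays dark in PC9 and H1975 with no library above 2.12 CPM, and combo ranges from dark to brighter than DTP.

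Most of the chosen regions lay far from gene starts. Only 4 (3.92%) were within 1 kb of an annotated transcription start, 75 (73.5%) were more than 10 kb away and 19 (18.6%) more than 100 kb away, with a median of 28.8 kb. Of all regions at 5 CPM or more in every DTP library, 48.1% were within 1 kb and the median was 1.36 kb. Of all regions with at most 3 counts in DMSO, whether opened or not, 3.48% were within 1 kb and the median was 25.2 kb. In their distance to starts, the chosen regions were thus like other regions closed in DMSO. A gene body held 46 of them (45.1%), against 60.9% of the regions closed in DMSO and 76.2% of those open in DTP, and the gap was widest in H1975, at 32.5% against 63.6% of the regions closed in DMSO.

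**Figure D2:**
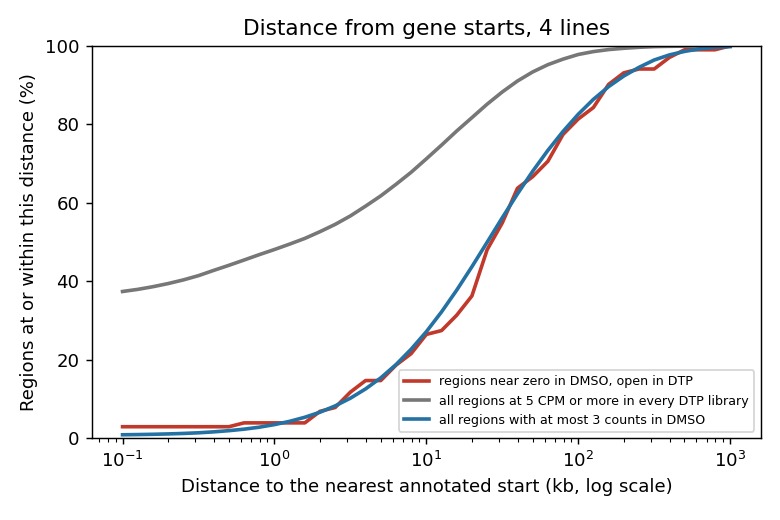
Cumulative share of regions (y, %) by distance to the nearest annotated start (x, kb, log scale) for the 102 chosen regions, all regions open in DTP and all regions with at most 3 DMSO counts in 4 lines. The chosen regions (median 28.8 kb) follow the regions closed in DMSO (median 25.2 kb) and lie to the right of the regions open in DTP (median 1.36 kb).

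The 4 regions within 1 kb of a start were all in HCC2935, at SCAT2, at CORO1C, which encodes an actin-binding coronin, at FNDC3B, a fibronectin type III domain protein, and at the microRNA host gene MIR646HG. The authors' annotation placed 32 of the 102 in introns, 22 in distal intergenic DNA, 9 in promoters up to 3 kb, 5 in exons and 2 in 3′ UTRs. The other 32 are outside the annotated table. Chromosome 4 held 15 (14.7%, against 3.31% of the regions open in DTP) and chromosomes 5 and 11 held 13 each (12.7%, against 5.18% and 5.28%). The regions closed in DMSO were not counted by chromosome, so these shares do not set the chosen regions apart from them. 1 region lay outside chromosomes 1 to 22 and X, and its level is not given.

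Some regions lay close together, so they are not independent loci. Another chosen region of any line was within 1 Mb of 29 of them, and 15 had one of the same line there. A group on chromosome 19 between LOC105372345 and LOC105372346, which are uncharacterised noncoding loci, held 1 PC9, 3 H1975 and 1 HCC2935 region. In H1975 a pair of regions at ZNF431, which encodes a zinc finger protein, lay 0.309 kb apart.

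The chromatin around the regions was measured from the other regions within 250 kb on each side. Its median log2 ratio of DTP to DMSO was 0.34 in PC9, 0.76 in H1975 and 0.70 in HCC2935. The ratio was above 2 around 19 of the 102 regions, above 1 around 42 and below 0 around 13. Other chosen regions inside a window were counted in, and these are low in DMSO and high in DTP by the rule. Where chosen regions lie close together, a part of the ratio therefore follows from the choice. The share of such ratios around regions not chosen was not determined. Around LOC105372345 in H1975 it was 2.04, whereas around OSMR-DT it was −0.20, around HTR1E −0.25 and around SHROOM3 in PC9 0.02. Whether copy number or broad chromatin changes took part in these shifts was not tested. Over blocks of 10 Mb, the median log2 fold change of all tested regions from DMSO to DTP was between −0.41 and 0.93 at the HCC2935 regions and between −0.13 and 0.46 at those of H1975.

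9 lists of genes were looked up among the nearest genes, covering lung and gut lineages, epithelial-mesenchymal transition, YAP and TEAD targets, receptor tyrosine kinases, neural adhesion, matrix, retinoid metabolism and other cell types. Of the 102 regions, 2 were nearest to a gene for neural adhesion and synapse (1.96%, against 0.183% of the regions open in DTP), namely the contactins CNTN6 in H1975 and CNTN5 in HCC2935, which are neuronal cell adhesion molecules. A region near KIRREL3-AS2 in HCC2935 lay inside KIRREL3, another adhesion gene on that list. The other 8 lists held 0 nearest genes. These counts are too small to set the regions apart.

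With AZD5153 alone these regions stayed below DTP, whose level was chosen high. In PC9 the summed AZD5153 count was 1 to 26 with a median of 7, and in H1975 it was 1 to 37 with a median of 8.5. No AZD5153 library reached 5 CPM at any of them, the highest values being 2.12 CPM in PC9 and 2.02 in H1975. The median ratio of AZD5153 to DTP was 0.0635 in PC9 and 0.0429 in H1975.

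The comparison of AZD5153 with DMSO cannot be read as a result, since the DMSO libraries had been chosen low and the regions passed the filter on low counts through their DTP libraries. For the record, AZD5153 was called higher than DMSO at 1 of 8 regions in PC9 and 14 of 40 in H1975 (edgeR quasi-likelihood test, Benjamini-Hochberg adjusted p under 0.05), where 11.3% and 26.7% of all tested regions were higher. The PC9 share is near that background, and the H1975 count was 8 to 15 with 1 library left out and 9 by DESeq2. The PC9 region was the one near the noncoding gene LINC01091, at chr4:124018650-124019151, with DMSO counts of 1, 1 and 0, AZD5153 counts of 9, 6 and 11, and DTP counts of 29, 26 and 35. All AZD5153 values were above DMSO and below DTP.

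At the same regions, AZD5153 given after osimertinib left far more signal than AZD5153 given alone. This comparison used no library that chose the regions, but combo cells had received osimertinib, as had the DTP cells chosen high. It is therefore not free of the choice. Combo was higher than AZD5153 at 7 of 8 regions in PC9 and 40 of 40 in H1975 (edgeR, adjusted p under 0.05). At none was it lower. Among all tested regions 22.6% and 31.2% were higher, and among those at 5 CPM or more in every DTP library 31.3% and 52.9%. In a fit of the 2 groups only, 6 PC9 and 39 H1975 regions passed the filter, all higher. Their AZD5153 counts were low, so they passed through their combo libraries, and regions low in combo dropped out. This fit therefore adds no support. The median log2 fold change was 3.31 in PC9 and 4.29 in H1975, against 0.03 and −0.02 over all tested regions. In H1975 all combo libraries were above all AZD5153 libraries at each of the 40, but the share of all regions with such a gap was not counted. Median fold changes in blocks of 10 Mb ran from −0.46 to 1.36 at the H1975 regions, and with them subtracted all 40 still had a remaining log2 fold change of at least 1.

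GRM8, the gene of a metabotropic glutamate receptor, gave the widest gap in PC9. Its region lies at chr7:126449478-126449979, within the gene and 2.29 kb from a start. Counts were 0, 1 and 1 in DMSO, 36, 43 and 43 in DTP, 0, 1 and 0 in AZD5153 and 87, 66 and 72 in combo. AZD5153 alone was as empty as DMSO, and every combo library was above every DTP library. The ratio of combo to AZD5153 was 237, with a wide 95% interval from counting error of 42.1 to 9397, since AZD5153 held 1 count in all.

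In H1975 the largest ratio of combo to AZD5153 was near HTR1E, a serotonin receptor gene whose start is 434.5 kb away, at chr6:86502575-86503076. DMSO held 0, 1 and 1 counts, DTP 94, 114 and 133, AZD5153 0, 0 and 1, and combo 47, 29 and 31. Combo lay between AZD5153 and DTP without overlap. The ratio to AZD5153 was 93 (interval 16.3 to 3706).

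LOC105372345 in PC9, at chr19:27672557-27673058, was the region not called in combo against AZD5153. It had 3, 3 and 1 counts in AZD5153 and 10, 3 and 2 in combo, which overlap (log2 fold change 1.19, edgeR adjusted p = 0.117). SHROOM3 in PC9 passed at an adjusted p of 0.0356, but did not pass in 8 of 12 alternative settings, over which p ran from 0.0235 to 0.126.

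**Figure D3:**
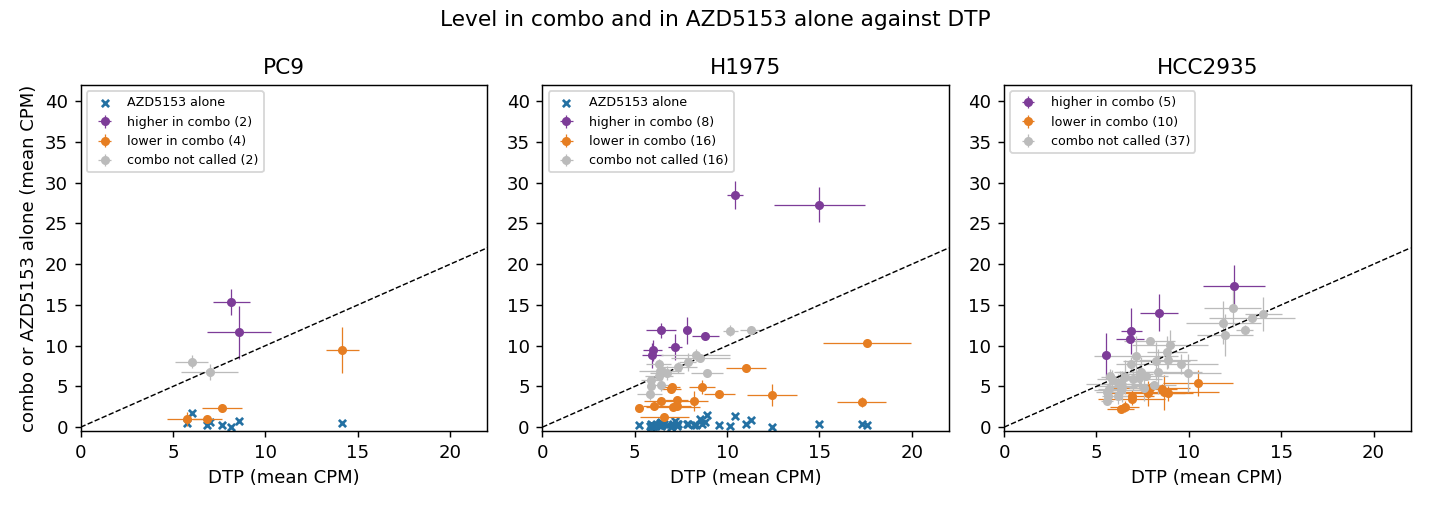
Mean CPM in combo (circles, with SD of 3 libraries on both axes) and in AZD5153 alone (crosses) against mean CPM in DTP for the PC9, H1975 and 52 of the HCC2935 regions, with equality dashed. Crosses lie near 0 in PC9 and H1975, while combo falls on both sides of the line, with 8 H1975 regions higher, 16 lower and 16 not called.

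Against DTP, combo moved in both directions. In PC9 it was lower at 4 of 8 regions, higher at 2 and not called at 2, where 11.6% of all tested regions were lower and 10.7% higher. In H1975 it was lower at 16 of 40 and higher at 8, beside 9.50% lower and 11.5% higher among all tested regions. In HCC2935 it was lower at 10 of 53 and higher at 5, beside 6.03% and 2.37%. The SVOP region in HCC827 was not called, and among all tested regions of that line 0% were lower and 0% higher. Each call is by edgeR with a Benjamini-Hochberg adjusted p under 0.05. Among the regions at 5 CPM or more in every DTP library, 15% were lower and 17.3% higher in PC9. The same set had 10.5% lower and 28.6% higher in H1975, beside 10.3% and 4.54% in HCC2935. Against this set, the chosen H1975 regions had fewer higher calls (20%) but more lower calls (40%). The chosen regions of PC9 had more lower calls (50%) and more higher calls (25%) than the set, but these are shares of 8 regions. Those of HCC2935 also had more of both (18.9% lower and 9.43% higher). The set shares only the DTP threshold with the chosen regions and was not matched for distance to starts or for DTP level. The DTP libraries had been chosen high, so these shares are not independent of the rule. The counts in HCC2935 were 5 to 9 lower and 1 to 3 higher with 1 library left out, and 4 lower and 1 higher by DESeq2.

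The median log2 fold change from DTP to combo was −0.32 in PC9, −0.06 in H1975 and −0.20 in HCC2935. The ratio of combo to DTP ran from 0.149 to 1.88 in PC9, from 0.176 to 2.73 in H1975 and from 0.357 to 1.71 in HCC2935. All combo libraries stayed at 5 CPM or more at 5, 23 and 23 regions. The lowest combo library was above the highest DMSO library at 7 of 8, 40 of 40 and 53 of 53. The DMSO libraries had been chosen low, so little signal was needed for this, and it cannot be read as a result. For neither count was the share over all regions determined. A combo peak had been called by the authors over 5 to 6 of the 8 PC9 regions per library, over 39 of the 40 in H1975 and over 45 to 52 of the 53 in HCC2935, and over 0 in any DMSO library. The share of all regions with a combo peak was not counted either. With at most 3 DMSO counts by the rule, the lack of DMSO peaks cannot be read as a result.

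The steepest fall in PC9 was in SHROOM3, which encodes an actin-binding protein of apical constriction. The region is intronic, 24.2 kb from a start, at chr4:76663706-76664207. DMSO held 1, 1 and 1 counts, DTP 37, 29 and 37, AZD5153 2, 2 and 1, and combo 6, 3 and 6. Combo lay between DMSO and DTP without overlap (mean 1.02 CPM against 0.214 in DMSO), with a log2 fold change to DTP of −2.70 (SE 0.33, edgeR adjusted p = 2.48e-13).

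In H1975 the steepest fall was at LOC105372345, at chr19:27669658-27670159. Counts were 1, 0 and 0 in DMSO, 135, 160 and 179 in DTP, 2, 4 and 1 in AZD5153 and 24, 34 and 26 in combo. The log2 fold change from DTP to combo was −2.43 (SE 0.15, edgeR adjusted p = 4.09e-36). The PC9 region, separated from it by 2.40 kb, went from 27, 34 and 25 counts in DTP to 10, 3 and 2 in combo (−2.44, SE 0.35, adjusted p = 8.64e-10). The H1975 region that matches the PC9 one held 117, 168 and 146 counts in DTP and 119, 114 and 166 in combo (−0.05, SE 0.11, adjusted p = 0.786), with overlapping groups, so the fall was not seen at the same region in H1975.

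ACSM3, the gene of a mitochondrial acyl-CoA synthetase, fell similarly in H1975, from 65, 49 and 65 counts to 11, 9 and 13 (−2.37). In HCC2935 the steepest fall was at LOC105373643, at chr2:139379895-139380396. It held 2, 0 and 0 counts in DMSO, 44, 42 and 35 in DTP and 12, 18 and 15 in combo (−1.46, SE 0.28, edgeR adjusted p = 0.00034). COL11A1, a chain of fibrillar collagen, fell by 1.32 on the log2 scale there.

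Other regions opened further in combo. OSMR-DT is transcribed divergently from OSMR, which encodes the receptor of the cytokine oncostatin M, and its intron holds the H1975 region chr5:38816157-38816658. DMSO held 1, 1 and 0 counts, DTP 88, 102 and 95, AZD5153 13, 7 and 15, and combo 234, 250 and 307. Each group lay above the one before when ordered as DMSO, AZD5153, DTP and combo. The log2 fold change from DTP to combo was 1.53 (SE 0.10, edgeR adjusted p = 1.62e-33).

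The region in CNTN6, at chr3:1404161-1404662 and 2.88 kb from a start, went from 0, 1 and 0 counts in DMSO to 104, 165 and 144 in DTP and 255, 232 and 267 in combo. AZD5153 alone held 5, 3 and 2. Combo exceeded DTP in every library (0.93, SE 0.09, edgeR adjusted p = 1.15e-16). The GRM8 region in PC9 rose by the same log2 amount, 0.93 (SE 0.16, adjusted p = 3.91e-07).

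In HCC2935 the largest rise was at the SCAT2 promoter printed above, with 1, 1 and 1 counts in DMSO, 39, 48 and 45 in DTP and 56, 93 and 85 in combo. The log2 fold change was 0.79 (SE 0.20, edgeR adjusted p = 0.00681). The call was lost without DTP replicate 1, without combo replicate 3 and by DESeq2, with adjusted p of 0.00423 to 0.101 over 12 alternatives. CNTN5 in the same line held 58, 53 and 57 counts in DTP and 42, 86 and 58 in combo, which overlap.

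**Figure D4:**
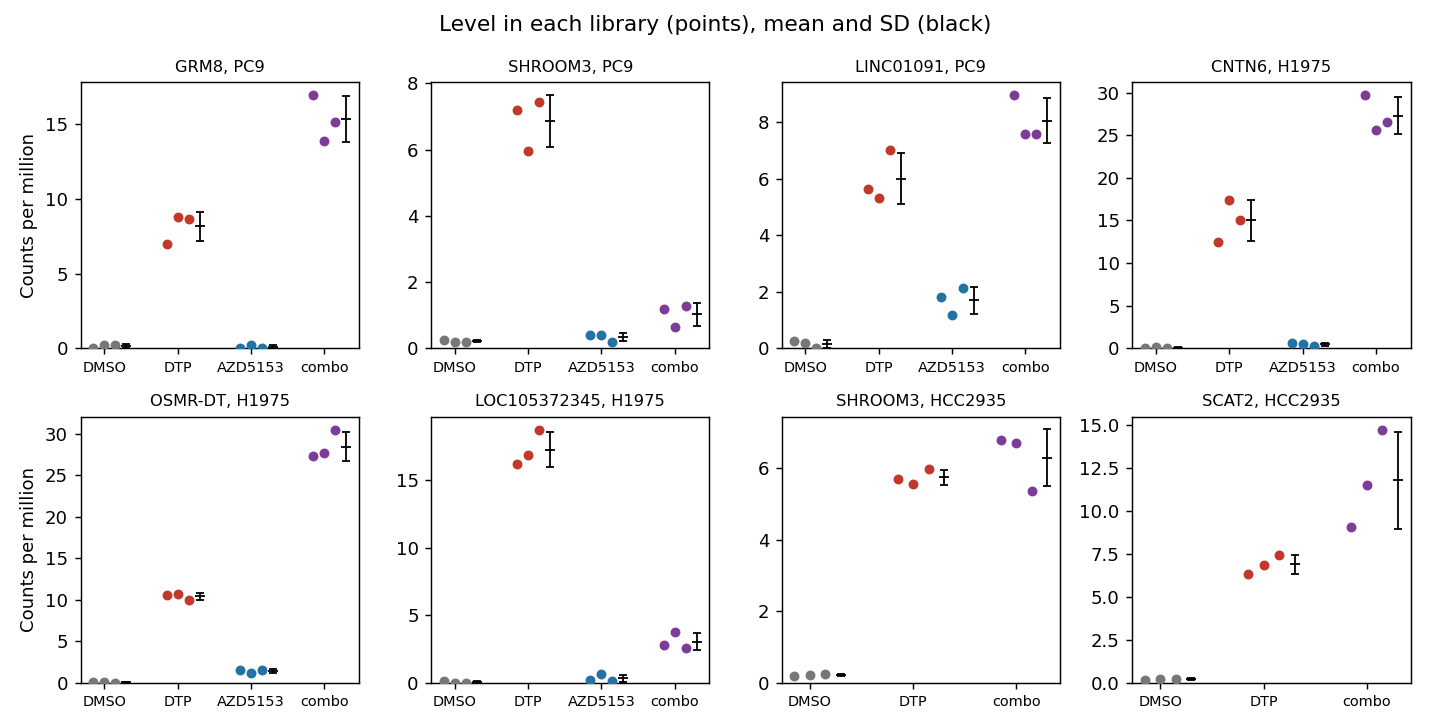
CPM in each library (points) with the mean and SD of 3 libraries (black) for 8 regions named by nearest gene and line. GRM8, CNTN6, OSMR-DT and SCAT2 are above DTP in combo, SHROOM3 in PC9 and LOC105372345 in H1975 fall towards DMSO, and AZD5153 alone stays below DTP in every panel that has it.

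Few regions met the rule in more than 1 line. Tables of the lines were matched by a reciprocal overlap of at least 50%, and 95 of the 102 regions had a match in at least 1 other line. 2 loci were chosen in a pair of lines. The first was SHROOM3, with identical coordinates in PC9 and HCC2935 and DTP counts of 35, 39 and 36 in HCC2935 after 1, 1 and 1 in DMSO. Combo held 42, 54 and 31 counts in HCC2935 (log2 fold change to DTP 0.16, edgeR adjusted p = 0.716), whereas it fell in PC9. The difference between the lines was not tested. The second was LINC02229, chosen in H1975 and HCC2935, with 49, 67 and 46 counts in DTP and 90, 129 and 67 in combo of HCC2935 (0.77, SE 0.18, adjusted p = 0.00425). Over 12 alternatives its adjusted p ran from 0.00148 to 0.0641, and the call was lost without combo replicate 2. In H1975 the region held 42, 68 and 65 counts in DTP and 59, 63 and 68 in combo, which overlap (0.18, edgeR adjusted p = 0.461).

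Matched regions that were not themselves chosen gave a test of DTP against DMSO in libraries the rule did not use. In PC9, 26 of 66 were higher in DTP and 0 lower, where 15.5% of all tested regions were higher. In H1975, 18 of 32 were higher and 1, near the poly(A)-binding protein gene PABPC4L, was lower, where 24.8% of all tested regions were higher. In HCC2935, 27 of 34 were higher and 0 lower, beside 18.4%. In HCC827, 0 of 61 were called by edgeR (17 at an unadjusted p under 0.05, 4 by DESeq2 and 6 without the filter on low counts), beside 0.0207% of all tested regions. With the replicate number as a block, which the pairing of HCC827 libraries calls for, 16 of 61 were higher there, beside 2.38% of all tested regions. The HCC827 DTP libraries were uneven at matched regions. SCAT2 had 6, 4 and 5 counts in DMSO and 8, 3 and 48 in DTP, and LOC105378327 had 5, 3 and 1 and then 10, 7 and 56. How far the calls with the block rest on DTP replicate 3 was not tested. All counts are by edgeR with a Benjamini-Hochberg adjusted p under 0.05, over all matched regions, including those that failed the filter on low counts (19, 9, 5 and 38 in PC9, H1975, HCC2935 and HCC827). Counted by region, 13 of the 102 were called higher in 2 other lines, 46 in 1 and 43 in 0.

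LOC105378327, an uncharacterised locus, was chosen in PC9 with 1, 1 and 1 counts in DMSO, 70, 74 and 68 in DTP and 32, 52 and 53 in combo. The matched H1975 region had 1, 1 and 5 in DMSO and 46, 40 and 47 in DTP (log2 fold change 3.92, SE 0.37), and the HCC2935 region had 3, 3 and 1 and 31, 24 and 19 (2.78, SE 0.46). Both were called higher by edgeR, with adjusted p of 5.95e-20 and 4.99e-06, and the DTP libraries did not overlap DMSO. Both also fell from DTP to combo, by 1.08 and 1.71 on the log2 scale, with adjusted p of 6.69e-05 and 0.000805.

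The SCAT2 promoter, chosen in HCC2935, had 4, 5 and 5 counts in DMSO and 21, 28 and 27 in DTP of PC9 (2.31, SE 0.35, edgeR adjusted p = 3.39e-09). In H1975 it had 2, 7 and 4 in DMSO and 8, 27 and 16 in DTP (1.68, SE 0.41, adjusted p = 0.000226), with 21, 25 and 26 in AZD5153 alone. In CPM, AZD5153 alone (2.50 to 4.03) overlapped DTP (0.961 to 2.85) there.

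The OSMR-DT region also rose in combo elsewhere. In PC9 DTP held 15, 14 and 12 counts and combo 40, 41 and 51 (1.73, SE 0.24, edgeR adjusted p = 1.31e-10), with 4, 7 and 6 in AZD5153 alone. In HCC2935 the counts were 7, 3 and 6 in DTP and 14, 27 and 28 in combo (2.05, SE 0.40, adjusted p = 0.000472). In HCC827 they were 4, 6 and 35 in DTP and 24, 15 and 58 in combo, so each combo library was above each DTP library in CPM (8.70 to 16.1 against 1.81 to 8.25), but the edgeR adjusted p was 1. With the replicate block, 0 regions of that line were called higher in combo.

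Near zero in one line did not mean near zero in another. Of the 198 matches, 24, from 15 regions, were at 5 CPM or more in every DMSO library of the other line. The H1975 region near LINC01799 had PC9 counts of 80, 94 and 81 in DMSO and 89, 91 and 78 in DTP (−0.09, edgeR adjusted p = 0.644). PC9 held it open with or without osimertinib, and so at LINC00458, with 153, 151 and 167 counts in DMSO and 147, 155 and 151 in DTP.

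**Figure D5:**
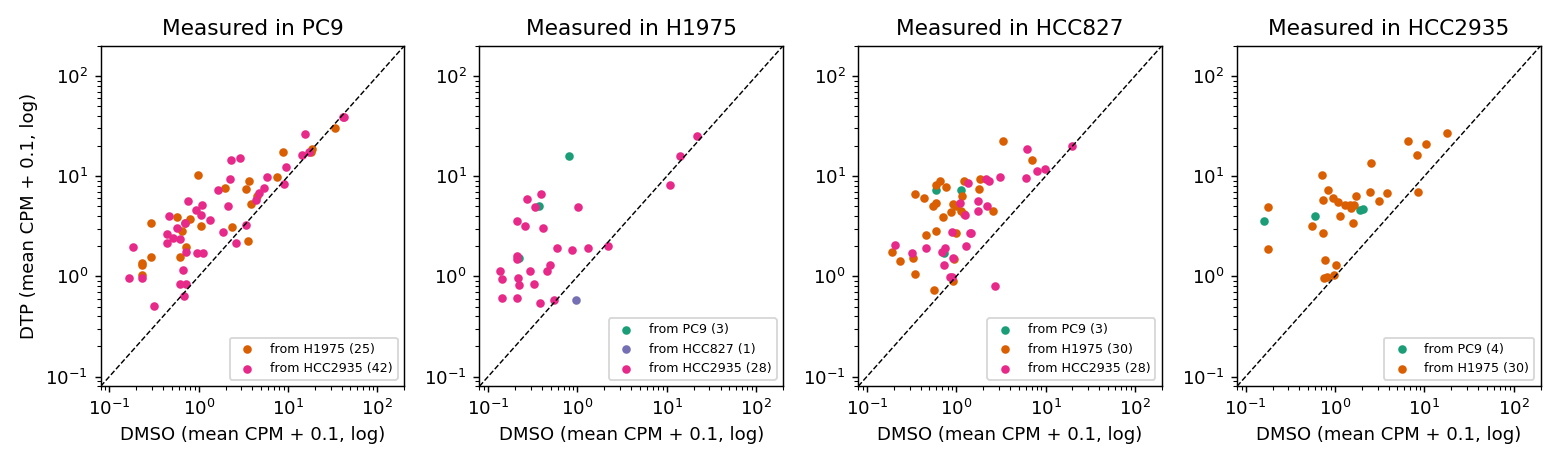
Mean CPM + 0.1 in DTP (y, log scale) against DMSO (x, log scale) in each of the 4 lines at regions matched to those chosen in another line, coloured by that line, with equality dashed. Most points lie above the line, and 26 of 66 matched regions in PC9, 18 of 32 in H1975 and 27 of 34 in HCC2935 were called higher in DTP. In HCC827 0 of 61 were called without the replicate block and 16 of 61 with it.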

How the data were processed

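Per line, the authors deposited raw counts over regions of 502 bases, both whole and as a smaller annotated table, and for every library peaks with q values as −log10. The peak lists were used only for the presence of a peak. Per the labels, reads were aligned to hg38, and the submitters' notes name BWA 0.7.17, SAMtools 1.9, deepTools 3.4, MACS2 2.2.6, featureCounts 2.0.0 and ChIPseeker 1.29.1. The extraction protocol describes H3K27ac immunoprecipitation, whereas titles say ATAC-seq, and the values were read as the latter. Replicates were deposited apart, and groups follow the labels. The sources do not say how the regions were formed from peaks.

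CPM used the column total. Counts of each line were fitted with edgeR 4.0.16 in R 4.3.3 (TMM, filterByExpr, quasi-likelihood test, all groups of the line), and adjusted by Benjamini-Hochberg over all tested regions, 82309 in HCC827, 126506 in PC9, 154179 in HCC2935 and 191202 in H1975. All 102 regions passed the filter, which their DTP libraries secured. Ratios have exact 95% intervals, which cover counting error only. The edgeR fit was tested on simulated counts without groups near zero and with smaller changes, so that test does not cover the chosen regions. Alternatives used DESeq2 1.42.0, other thresholds, filters, scalings and left-out libraries. A median fold change in blocks of 10 Mb was added after seeing the data.

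Regions are named by the authors' nearest gene or, outside their annotated table, by the nearest of 79357 starts in RefSeq (GRCh38.p14). Named regions are the 4 with the highest lowest DTP value per line, those with the largest called changes in each direction, those chosen in a pair of lines, those nearest to a listed gene and those next to the thresholds. ACSM3, COL11A1, CORO1C, FNDC3B, KIRREL3-AS2, MIR646HG, ZNF431, PABPC4L, LINC01799, LINC00458 and the matched values of OSMR-DT, SCAT2 and LOC105378327 were picked after their values were seen. The regions, rule and gene lists were chosen with earlier results of these data known. Deviations of libraries with the same number correlated in every pair of HCC827 groups (r 0.163 to 0.847), which were therefore taken as paired, and not in the other lines.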

Additional observations from a re-analysis of the deposited data

Results flagged for a closer look

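At 6 matches, all DTP libraries of the other line lay below all its DMSO libraries, opposite to the line in which the region was chosen. The direction in the choosing line is fixed by the rule, and the difference between the lines was not tested. The log2 ratio of mean CPM was −0.69 at LINC01821, chosen in H1975, in PC9 (49 DMSO and 32 DTP counts in all). It was −0.84 at SVOP, chosen in HCC827, in H1975 (22 and 13 counts). A region near LINC02760, chosen in HCC2935, gave −0.14 in PC9 (606 and 583 counts) and −1.93 in HCC827 (24 and 7 counts). PABPC4L, chosen in HCC2935, gave −0.42 in H1975, where edgeR gave a log2 fold change of −0.59 with an adjusted p of 5.81e-05. NDP, chosen in HCC2935, gave −0.14 in H1975 (54 and 52 counts).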

How the results depend on the processing

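The number of chosen regions depended strongly on the thresholds. With DTP at 3 CPM it was 20 in HCC827, 46 in PC9, 142 in H1975 and 180 in HCC2935, and with 10 CPM 0, 1, 6 and 7. With a DMSO sum of 0 it was 0, 0, 0 and 1 in this order, and with a sum up to 6 it was 16, 40, 101 and 170. A limit of 0.25 CPM on the DMSO sum gave 101 in H1975, and TMM library sizes gave 2 in HCC827. Leaving out 1 library gave 1 to 21, 9 to 35, 42 to 89 and 60 to 150, since fewer libraries must then meet the rule. Regions lower in combo than in DTP numbered 10 in H1975 and 3 in HCC2935 when a log2 fold change of 1 was also asked for, and as many with the median of 10 Mb blocks removed. In HCC2935 they were 6 without a filter and 4 by DESeq2, and 5 to 9 with 1 library left out, 5 without DTP replicate 1 or combo replicate 3 and 6 without DTP replicate 2. Regions higher in combo than in DTP numbered 0 in PC9, 1 in H1975 and 0 in HCC2935 with that fold, 0, 2 and 0 with the block median removed, and 1 in PC9 and 2 in HCC2935 without a filter. They were 1 in PC9 in a fit of the 2 groups only, 1 in PC9 and 3 in H1975 with libraries summed, 1, 5 and 1 by DESeq2, and 1 to 2 in PC9 and 1 to 3 in HCC2935 with 1 library left out, lowered in PC9 to 1 without DTP replicate 1 or 3 or combo replicate 2, and in HCC2935 by each of the 6 libraries. Regions higher in AZD5153 than in DMSO in H1975 numbered 9 without a filter and 9 by DESeq2, and 8 to 15 with 1 library left out, 9 without DMSO replicate 2 or 3 and 8 without AZD5153 replicate 1. In a fit of those 2 groups only, no chosen region passed the filter, so no count was had. Matched regions higher in DTP in HCC827 numbered 6 without a filter, 16 with the replicate block and 4 by DESeq2. The causes were not tested. In the other lines the pairing by replicate number did not hold and the block kept each count within 1.5 times. Of 826 further fits of 57 single region calls, 777 kept their side of the threshold, 43 lost the call, 6 gained it and 0 changed direction. Depth limits the low side of the rule, since 3 DMSO counts cannot tell a closed region from a rarely open one.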

Other observations

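Values of combo against DTP at matched regions were read after the data were seen, with no test of the counts. Of the regions lower in combo in their own line, 19 had a match in PC9, where edgeR called 8 lower and 0 higher, while 6 of 38 matches of regions not called in their own line were lower and 2 higher, and 11.6% of all tested PC9 regions were lower and 10.7% higher. In HCC2935, 1 of 10 such matches was lower and 0 higher (0 of 15 and 0 for regions not called, 6.03% and 2.37% of all tested), and in H1975 1 of 6 was lower and 1 higher (2 of 22 and 2 for regions not called, 9.50% and 11.5% of all tested). Of those higher in combo in their own line, 2 of 10 matches in PC9 and 1 of 9 in HCC2935 were higher and 0 lower, and in H1975 1 of 4 was lower and 0 higher. In HCC827 none of these matches was called, 15 of the lower and 9 of the higher kind. The matches share a source where regions lie close together.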
